A study of Homo sapiens with 12 samples.

Results

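The enzymes of glycolysis examined here were the products of HK2, GPI, PFKP, ALDOA, GAPDH, PGK1, PGAM1, ENO1, PKM and LDHA, 10 genes of the 20212 in the deposited count table. They were chosen by name to cover the steps from glucose to lactate except triosephosphate isomerase, whose single gene TPI1 is given beside them. Of the 10 names, 9 were found as written. PGK1 had been turned into a number by a spreadsheet and was found by its Ensembl identifier, ENSG00000102144. All 10 genes passed the filter on low counts, HK2 with few footprints. In GRCh37 the genes lie on 9 chromosomes, HK2 at chr2:75061254-75120486, GPI at chr19:34850385-34893318, PFKP at chr10:3108525-3179910, ALDOA at chr16:30075485-30081778, GAPDH at chr12:6643678-6647540, PGK1 at chrX:77166236-77384792, PGAM1 at chr10:99185948-99193201, ENO1 at chr1:8921059-8939249, PKM at chr15:72491370-72524160 and LDHA at chr11:18416107-18429972, ENO1 and PKM on the minus strand and the others on the plus strand.

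The cells were PANC-1, an established line labelled as human pancreatic duct, grown in DMEM with 10% fetal bovine serum. In the control arm, 3 cultures received the solvent DMSO, and in the treated arm 3 cultures received 50 nM rapamycin and were collected after 60 min. Rapamycin binds FKBP12 and inhibits mTORC1, a kinase complex that promotes cap-dependent translation. Each culture gave a library of ribosome-protected fragments (RF), which are the stretches of mRNA covered by ribosomes, and a library of total RNA, so there were 12 libraries. The submitters describe the cultures as biological replicates, and all came from 1 line.

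Glycolysis splits glucose into 2 molecules of pyruvate in the cytosol and yields ATP and NADH. Hexokinase traps glucose as glucose-6-phosphate, phosphofructokinase commits it to the pathway, and pyruvate kinase releases the last ATP. Lactate dehydrogenase turns pyruvate into lactate and returns NAD+, and its use in the presence of oxygen is a known trait of tumour cells. Long-term mTORC1 activity is known to raise glycolytic gene expression through the transcription factor HIF1A.

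The RF libraries held 278835 to 1574723 counts and the RNA libraries 78081241 to 94293744. A count of 3 was taken as a floor, at or under which a level is poorly measured, and was not applied as a filter. It equalled 1.91 to 10.8 CPM in the RF libraries, where CPM are counts relative to library size. The epithelial keratins KRT8, KRT18 and KRT19 were at 1739, 1594 and 1372 FPKM in DMSO (fragments per kilobase of transcript, scaled to the size of the library), and all 8 duct and epithelial markers reached 1 FPKM in every library. EPCAM and CDH1 were low, at 4.81 and 7.58 FPKM, and the mesenchymal filament VIM was at 2486 FPKM. In extracts of whole cultures such as these, fewer cells of a kind and less RNA per cell cannot be told apart.

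The sequence that tells apart the forms of pyruvate kinase is shown because the forms are measured below. PKM carries a pair of mutually exclusive exons of 167 bases each, and an mRNA holds either the PKM1 exon or the PKM2 exon. The windows below are bases 54 to 83 of each exon on the minus strand of GRCh37, read from the genome, at chr15:72495447-72495476 for PKM1 and chr15:72494879-72494908 for PKM2. Capitals mark the 20 bases at which the windows differ. Over the whole exon 62 bases differed, an identity of 62.9%.
PKM1: TGTGcgAGCCTcAAGTCACTccaCAgaccT
PKM2: CCGCcgCCTGGcGCCCATTAccaGCgaccC

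The first 20 bases of an mRNA are shown because the best known class of mTORC1-dependent mRNAs, those with a terminal oligopyrimidine (TOP) motif, is recognised there. The motif searched was a C at the first base followed by at least 4 further pyrimidines (C or T), on the transcribed strand of the coding isoform with the highest FPKM among those with complete annotated ends. None of the 10 annotated starts held it, and 4.38% of 12765 tested genes with such an isoform did. Only ALDOA began with a run of pyrimidines longer than 1, and that run of 8 opened with T. Capitals mark the run, at chr16:30075595-30075614 for ALDOA (plus strand), chr12:6643920-6643939 for GAPDH (plus), chr1:8938726-8938745 for ENO1 (minus) and chr11:18417825-18417844 for LDHA (plus), all in GRCh37. An annotated start need not be the start used in these cells.
ALDOA: TCCTTCTTaaaaaaaaccag
GAPDH: aggcgtgtgtgtcggccggg
ENO1: agtatctgtgggtacccgga
LDHA: Taaaagccgggcgttcggag

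Rapamycin for 60 min was followed by no called change in any of the 10 enzymes, in translational efficiency (TE, RF relative to total RNA), in RF or in total RNA. By edgeR's quasi-likelihood test, adjusted by Benjamini and Hochberg's method, 0 of the 10 had an adjusted p under 0.05 in any of the 3 comparisons, against 0% of the 13329 genes tested. DESeq2's Wald test also called 0 of the 10 in each comparison, where it called 9.69% of all genes in TE, 0.0375% in RF and 0.218% in total RNA. By edgeR none reached an unadjusted p under 0.05 either, where 12.6% of all genes did in TE, 3.68% in RF and 5.82% in total RNA. In TE 6 enzymes were on the lower side and 4 on the higher, with a median log2 fold change of -0.070 beside -0.061 over all genes. In RF the split was 6 and 4 with a median of -0.12 beside 0.020, and in total RNA 8 and 2 with a median of -0.035 beside 0.0059. In total RNA the cultures of both arms overlapped for all 10 enzymes, whereas 6.61% of all genes had every rapamycin culture lower and 8.22% every one higher.

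The width of the intervals set what could be seen. For the 9 enzymes other than HK2, the 95% intervals of the TE change lay between 0.605-fold and 1.77-fold. Those of total RNA lay between -0.15 and 0.14 on the log2 scale. The TE fit had no term for the culture and took a single estimate of scatter per gene for both library types. Its standard errors were below those of RF alone in every enzyme but PFKP, for example 0.12 beside 0.18 for ENO1. The TE intervals may therefore be too narrow. A missing call in TE or RF therefore does not show that an enzyme was unaffected.

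**Figure D1:**
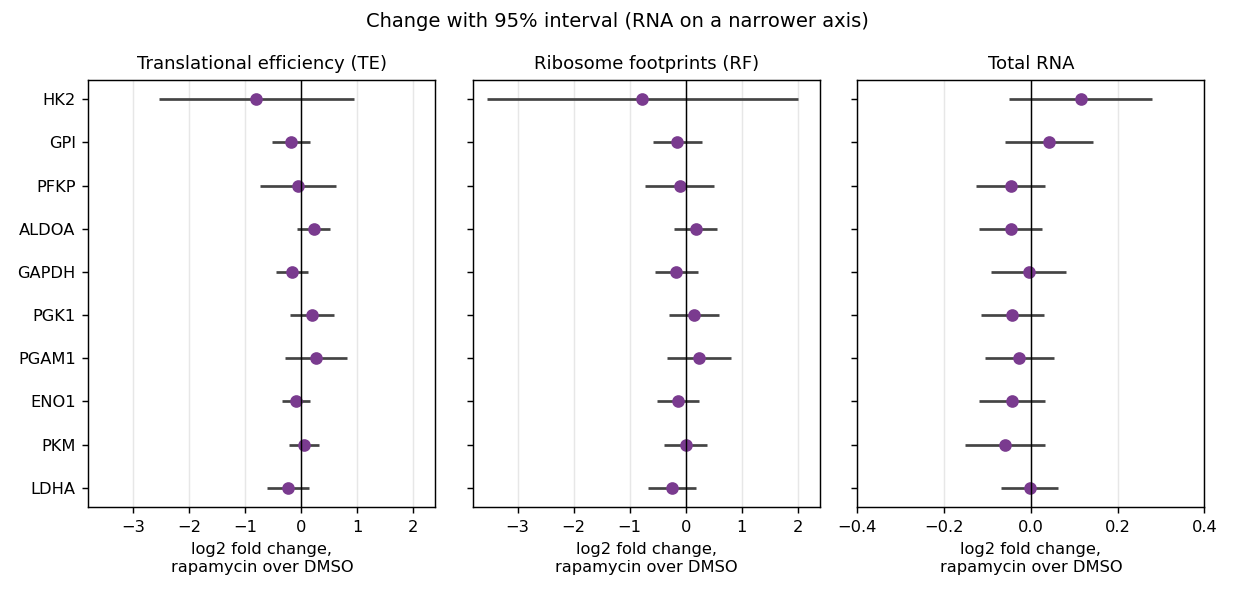
Log2 fold change (rapamycin over DMSO) of the 10 enzymes in TE, RF and total RNA, with points for the edgeR estimate and lines for its 95% interval; the RNA panel has a narrower axis. All 30 intervals cross 0, and the TE interval of HK2, from -2.54 to 0.95, is the widest of the 10 in that panel.

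HK2, the inducible hexokinase that sits on the mitochondrial surface and is raised in many tumours, was barely expressed. Its RF counts were 0, 10 and 6 in the DMSO cultures and 5, 4 and 0 in the rapamycin cultures, while total RNA gave 790 to 880 counts per library. At these counts the TE change of -0.80 had a standard error of 0.82 and an adjusted p of 0.73 (edgeR quasi-likelihood, Benjamini-Hochberg). Without DMSO culture 2 it was 0.14, so its direction rested on that culture. Per length, HK2 was at 1.36 ± 0.13 FPKM in DMSO and 1.44 ± 0.12 in rapamycin (SD, n = 3).

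HK1, the housekeeping hexokinase, was at 46.0 ± 2.7 FPKM in DMSO and held 51.9% of the summed FPKM of the 6 glucose-phosphorylating genes listed. ADPGK, which uses ADP in place of ATP to phosphorylate glucose, held 45.6% and HK2 1.53%. The TE change of HK1 was -0.23 with a standard error of 0.23, and the groups overlapped in TE. In RF and in total RNA every rapamycin culture was below every DMSO culture, as in 4.21% and 6.61% of all genes tested.

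GPI, which turns glucose-6-phosphate into fructose-6-phosphate, had RF levels of 443, 499 and 478 CPM in DMSO and 459, 434 and 389 CPM in rapamycin, with overlap between the groups. In log2 TE GPI stood at 0.16, 0.20 and 0.21 in the DMSO cultures and 0.13, -0.045 and -0.071 in the rapamycin cultures. Every rapamycin culture was thus below every DMSO culture, as in 6.19% of all genes tested, and GPI was the only enzyme of the 10 with that order. The fitted TE change was -0.19 with a standard error of 0.16 and an adjusted p of 0.67 in the quasi-likelihood test of edgeR, Benjamini-Hochberg adjusted. Its total RNA went the other way by 0.041 ± 0.045 (standard error), with overlapping groups.

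PFKP, the platelet-type phosphofructokinase, had the widest RF range relative to its level among the 9 better-covered enzymes. RF was 274, 227 and 403 CPM in DMSO and 373, 284 and 176 CPM in rapamycin, while total RNA stayed within 470 to 512 CPM in all 6. The highest values came from the deepest RF library of each arm, DMSO culture 3 and rapamycin culture 1, and the lowest from the smallest, rapamycin culture 3. The TE change of -0.050 (standard error 0.32) became 0.23 without DMSO culture 3, 0.17 without rapamycin culture 3, and -0.33 without rapamycin culture 1, so it had no stable direction.

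The order of RF by depth was shared by other enzymes. In PFKP, PGK1, PGAM1 and PKM both deepest RF libraries stood above the other 4 in scaled CPM, 4 of 10 enzymes beside 9% of all genes tested. None of the 10 stood below in both, beside 5.63% of all genes. As 1 of the deepest libraries is from each arm, the order does not follow the treatment, and the part of depth in the change of these enzymes was not tested beyond leaving libraries out.

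PFKP made up 75.7% ± 0.38 of the FPKM of the phosphofructokinase genes in DMSO, and PFKM and PFKL, the muscle and liver types, 13.0% and 11.3%. The TE change of PFKM was -0.17 with a standard error of 0.43, so no difference from PFKP could be read.

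ALDOA, the aldolase that cleaves fructose-1,6-bisphosphate, had RF levels of 1710, 1469 and 1863 CPM in DMSO and 1933, 1858 and 1926 CPM in rapamycin. DMSO culture 3 lay just above rapamycin culture 2, so the groups overlapped in RF. In log2 TE the values were 0.071, -0.19 and 0.22 in DMSO and 0.29, 0.26 and 0.25 in rapamycin, every rapamycin culture above every DMSO culture. ALDOA was the only enzyme of the 10 with that order, which 4.8% of all genes tested had.

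The fitted TE change of ALDOA was 0.23 with a standard error of 0.14, and its adjusted p of 0.52 was the smallest among the 10 (edgeR quasi-likelihood, Benjamini-Hochberg). The interval ran from -0.067 to 0.52, and the change from 0.11 without DMSO culture 2 to 0.30 without DMSO culture 3. DESeq2's Wald test gave 0.22 with an adjusted p of 0.104. ALDOC, the brain-type isozyme, was at 3.08 FPKM, and ALDOA held 99.8% of the aldolase FPKM.

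TPI1, which interconverts the triose phosphates made by aldolase, was at 402 ± 15 FPKM in DMSO, and its TE change was -0.0091 with a standard error of 0.20.

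GAPDH, which makes the first NADH of the pathway and is a common loading control, was the most abundant of the 10 in FPKM, at 2131 ± 73 in DMSO and 2107 ± 34 in rapamycin. RF was 2012, 2272 and 2179 CPM in DMSO and 2131, 1755 and 1866 CPM in rapamycin, and only rapamycin culture 1 reached the DMSO range. The TE change was -0.16 (standard error 0.13, interval -0.45 to 0.12) with an adjusted p of 0.65 by the quasi-likelihood test of edgeR, Benjamini-Hochberg adjusted. Total RNA changed by -0.0054 with a standard error of 0.038. GAPDHS, the sperm isozyme, was at 0.019 FPKM.

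PGK1, which makes the first ATP of the pathway, had RF levels of 554, 500 and 740 CPM in DMSO and 712, 650 and 635 CPM in rapamycin. DMSO culture 3 was the highest of the 6 and the other DMSO cultures the lowest. The TE change was 0.19 with a standard error of 0.19, and it ranged from 0.049 without DMSO culture 2 to 0.37 without DMSO culture 3.

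PGAM1, which moves the phosphate of 3-phosphoglycerate, showed the same order: 194, 145 and 272 CPM in DMSO and 263, 243 and 216 CPM in rapamycin. Its TE change of 0.26 (standard error 0.26) was the highest of the 10. Without DMSO culture 3 it was 0.58 and without DMSO culture 2 it was 0.026, so the size depended on single DMSO cultures. BPGM, which makes 2,3-bisphosphoglycerate in red cells and is a weak mutase, was at 11.9 FPKM, and PGAM1 held 90.3% of the FPKM of the mutase genes.

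ENO1, the ubiquitous enolase, had the most RF counts of the 10 in every library. Its RF level was 2741, 2753 and 2837 CPM in DMSO and 2664, 2641 and 2285 CPM in rapamycin, every rapamycin culture below every DMSO culture. That order was found in 1 of the 10 enzymes and in 4.21% of all genes tested, and the opposite order in none of the 10 and in 5.24% of all genes. Yet the fitted RF change was -0.13 with a standard error of 0.18 and an adjusted p of 0.9999, and without rapamycin culture 3 it was -0.066. The TE change was -0.091 with a standard error of 0.12 and an adjusted p of 0.80 (edgeR quasi-likelihood, Benjamini-Hochberg). Log2 TE was -0.34, -0.42 and -0.30 in DMSO and -0.39, -0.37 and -0.60 in rapamycin, so in TE the groups overlapped.

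ENO2, the neuronal enolase, was at 6.46 FPKM, and ENO1 held 99.4% of the enolase FPKM. The RF levels of ENO2 rested on 8 to 41 counts per library, and its TE change was -0.65 with a standard error of 0.33. Every rapamycin culture was below every DMSO culture in RF and in TE, as in 4.21% and 6.19% of all genes tested. ENO3 was lower in FPKM, at 3.72, but drew more reads, with 71 to 348 RF counts per library. In total RNA it was at 116 CPM in DMSO, beside 16.1 CPM for ENO2. Why counts and FPKM disagree was not tested, so the source of the reads counted for ENO3 is uncertain. On these counts the TE change of ENO3 was 0.28 with a standard error of 0.21. In RF and in TE every rapamycin culture was above every DMSO culture, as in 5.24% and 4.8% of all genes tested.

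PKM, which makes pyruvate and the last ATP, had a TE change of 0.060 with a standard error of 0.13. RF was 1366, 1362 and 1454 CPM in DMSO and 1480, 1349 and 1354 CPM in rapamycin, an RF change of 0.00049 with an interval from -0.38 to 0.38. Under TMM scaling over all 12 libraries together the TE change was -0.017. PKLR, the liver and red cell isozyme, was listed at 0 FPKM in the DMSO cultures.

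Nearly all PKM mRNA held the PKM2 exon. By summed isoform FPKM, the PKM2 form was at 740 ± 34 in DMSO and 714 ± 33 in rapamycin, and the PKM1 form at 12.6 ± 2.2 and 10.6 ± 0.92. The PKM1 share was 1.45%, 1.88% and 1.67% in the DMSO cultures and 1.58%, 1.42% and 1.37% in the rapamycin cultures, and the groups overlapped. The mean difference was -0.21 percentage points with a two-sided exact permutation p of 0.2, where 0.1 is the smallest p that 3 cultures against 3 can give. These shares rest on the authors' isoform estimates from paired RNA reads. Footprints were counted per gene and do not tell the forms apart here.

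LDHA, the muscle-type lactate dehydrogenase that favours lactate formation, had RF levels of 1252, 1433 and 1256 CPM in DMSO and 1347, 1044 and 935 CPM in rapamycin. The rapamycin culture with the deepest RF library lay within the DMSO range and the other two lay below it. The TE change was -0.24 (standard error 0.18, adjusted p 0.61 in the quasi-likelihood test of edgeR, Benjamini-Hochberg adjusted), and it ranged from -0.41 without rapamycin culture 1 to -0.14 without rapamycin culture 3. Total RNA was 1105 to 1129 CPM in DMSO and 1101 to 1129 CPM in rapamycin.

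LDHB, the heart-type subunit, held 31.8% ± 0.37 of the lactate dehydrogenase FPKM and LDHA 68.2% ± 0.37 in DMSO, and in rapamycin the shares were 30.9% ± 0.62 and 69.0% ± 0.62. The TE change of LDHB was 0.21 with a standard error of 0.28. The difference between LDHA and LDHB in TE change was not tested. The testis form LDHC had a TE change of -4.64 at an unadjusted p of 0.023, on 0 to 17 RF counts and 6 to 26 RNA counts per library, and its adjusted p was 0.32 (edgeR quasi-likelihood, Benjamini-Hochberg).

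**Figure D2:**
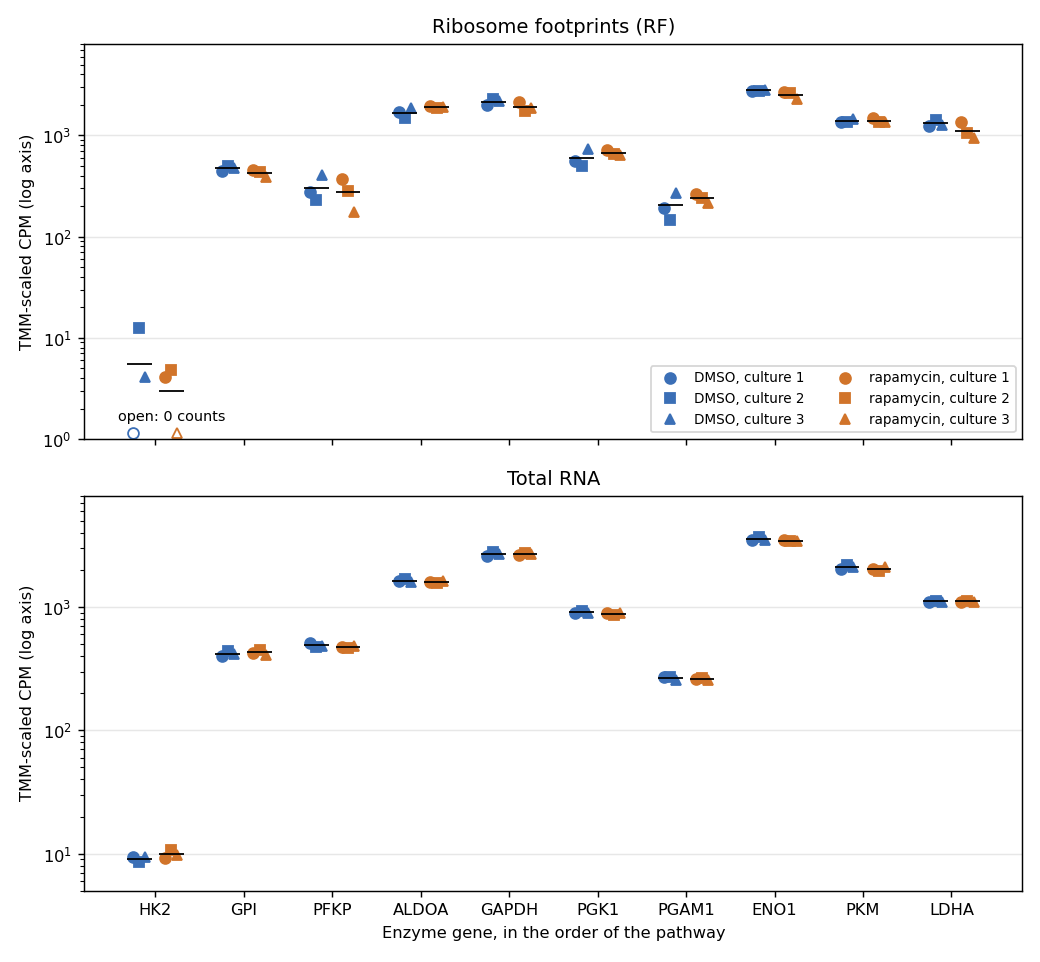
Scaled CPM of the 10 enzymes in the RF libraries (top) and the total RNA libraries (bottom) on log axes, with a point per culture, a bar for the mean of 3 cultures and open symbols for 0 counts. HK2 lies far below the others in both panels, RF spreads most in PFKP among the other 9, and total RNA of each enzyme is nearly level across the 6 cultures.

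Levels between the enzymes were compared per length. In DMSO the order by FPKM was GAPDH at 2131 ± 73, ENO1 at 1612 ± 56, ALDOA at 1445 ± 42, PKM at 805 ± 31, LDHA at 737 ± 7.8, PGK1 at 618 ± 17, GPI at 170 ± 6.0, PFKP at 148 ± 0.63, PGAM1 at 120 ± 5.5 and HK2 at 1.36 ± 0.13. No neighbours in that order overlapped within 1 SD, which covers the spread of cultures only. Of the PGK1 FPKM, 89.2% was assigned to a 702-base isoform without annotated coding sequence, so the place of PGK1 in the order is uncertain. Short isoforms also took part of ALDOA, 19.6% at 801 bases and 14.9% at 586, and of LDHA, 21.3% at 576 bases. In RNA CPM, which ignores length, ALDOA was at 1638 and PKM at 2122 in DMSO. The places of ALDOA and LDHA thus also rest on the isoform assignment. The enzymes of the steps from aldolase onward were more abundant than HK2, GPI and PFKP, with PGAM1 the exception below PFKP.

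RF CPM per kilobase of coding sequence gave a like order in DMSO, with ENO1 at 2133 ± 40 and GAPDH at 2144 ± 131 not separated by their spread. PGAM1 at 267 ± 84 and GPI at 277 ± 17 were likewise not separated. LDHA at 1213 ± 95 stood above PKM at 875 ± 33, the reverse of their order in FPKM. PGAM1 also stood above PFKP, at 128 ± 39, where in FPKM it was below.

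**Figure D3:**
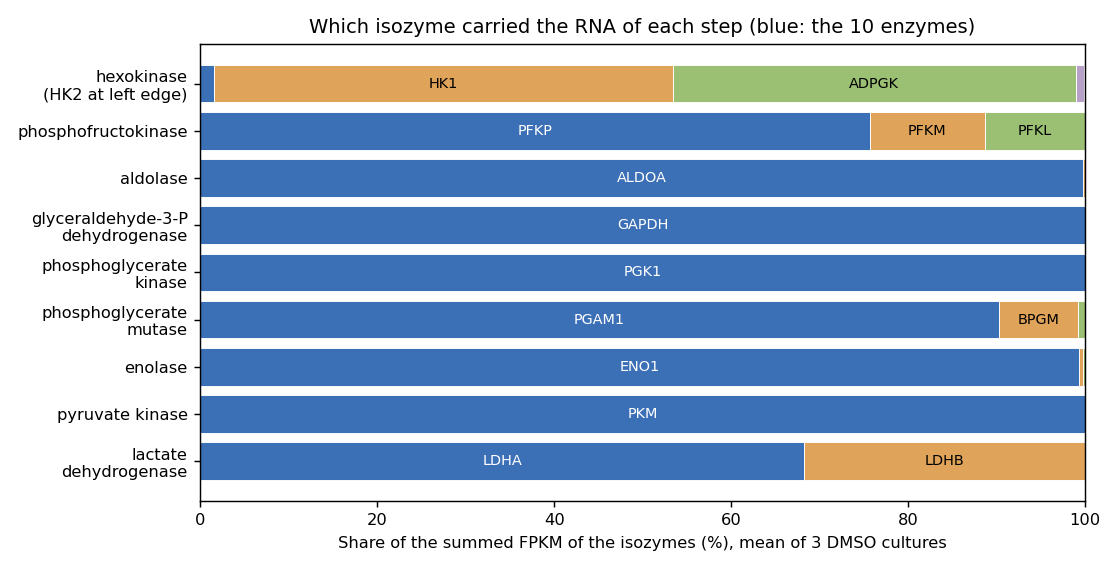
Share of the summed FPKM of the isozymes of each step (percent, mean of 3 DMSO cultures), with the 10 enzymes in blue. The enzyme named here held most of the FPKM at 8 of the 9 steps drawn, from 68.2% for LDHA upward, and HK2 held 1.53% at the hexokinase step.

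The enzymes together took 0.964% to 1.13% of RF counts and 1.27% to 1.35% of RNA counts per library. The means were 1.06% ± 0.085 in DMSO RF and 1.07% ± 0.019 in rapamycin RF, and 1.31% ± 0.036 and 1.29% ± 0.014 in total RNA (SD, n = 3). The Wilson 95% interval of the smallest RF library ran from 1.02% to 1.09% and covers counting error only.

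In DMSO the enzymes lay near the middle of all genes in TE. Their percentile among the 13329 genes tested was 67.5 for LDHA, 66.7 for GPI, 63.8 for ALDOA, 55.6 for GAPDH, 54.7 for ENO1, 53.0 for PGAM1, 47.7 for PKM, 47.3 for PGK1 and 44.1 for PFKP. HK2, on 0, 10 and 6 RF counts, stood at 49.0, at 32.8 with a prior count of 0.5 in place of 2, and at 26.8 to 64.5 without single DMSO cultures, so its place was not fixed. The median percentile was 53.9, and in the rapamycin cultures it was 51.3. These ratios take counts over all exons, so untranslated length lowers them.

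**Figure D4:**
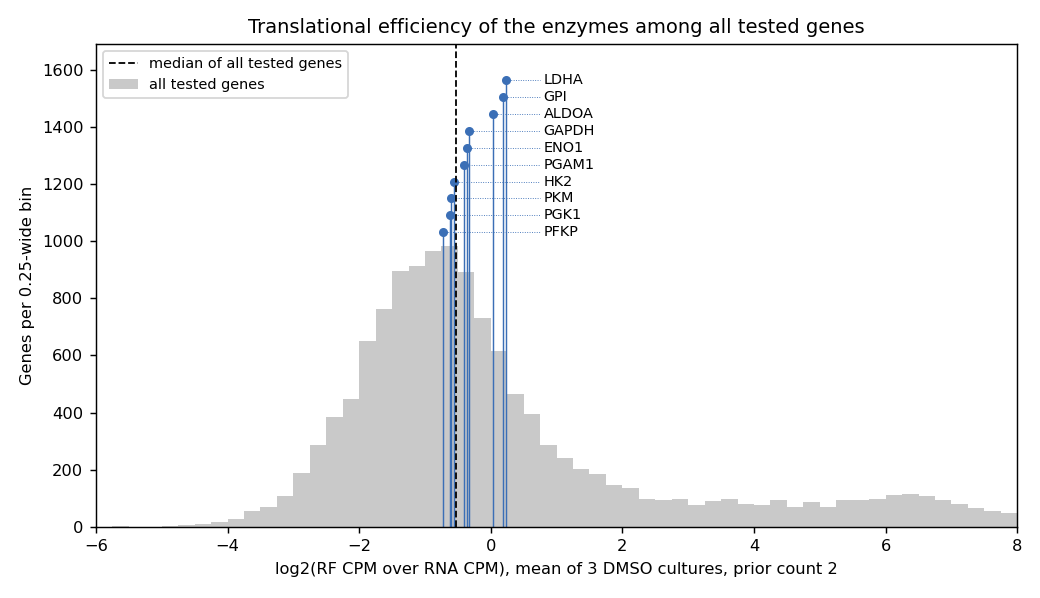
Log2 ratio of RF CPM to RNA CPM (prior count 2, mean of 3 DMSO cultures) for the 10 enzymes, drawn as labelled points over a histogram of all 13329 genes tested, 257 of them outside the axis range. The enzymes lie from -0.73 for PFKP to 0.24 for LDHA around the median of all genes at -0.53.

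Several of these genes have processed copies in the genome, and only uniquely aligned reads were counted. Of all 30-base windows of the coding sequences, a typical footprint length, 26.6% were found elsewhere in GRCh37 without a mismatch. The share was 100% for PGAM1, 66.2% for GAPDH, 46.0% for LDHA, 35.6% for HK2, 30.6% for PGK1, 21.9% for PKM, 18.9% for ENO1, 8.84% for ALDOA, 0.258% for PFKP and 0% for GPI. GAPDH windows recurred in 31 other regions of the genome that held at least 10 of them each, and PGAM1 windows in 13 such regions. A read from such a window matches both the spliced coding sequence and another place in the genome exactly. A window across an exon junction is unbroken only at the other place. The RF and TE levels of enzymes with many repeated windows are therefore uncertain, most of all those of PGAM1, GAPDH and LDHA.

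PGAM1 nevertheless had 63 to 400 RF counts per library. PGAM4, an intronless copy of PGAM1 on the X chromosome, took 15.8% to 25.8% of the summed RF counts of both genes, on 16 to 83 counts of its own, and 0.127% to 0.224% of their RNA counts. Whether PGAM4 footprints came from PGAM1 mRNA was not tested. For PGK1 and its testis copy PGK2, the PGK2 part was 0.521% to 3.40% of RF counts and at most 0.012% of RNA counts. In both pairs the copy's share was higher in every RF library than in any RNA library, in DMSO and rapamycin alike.

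**Figure D5:**
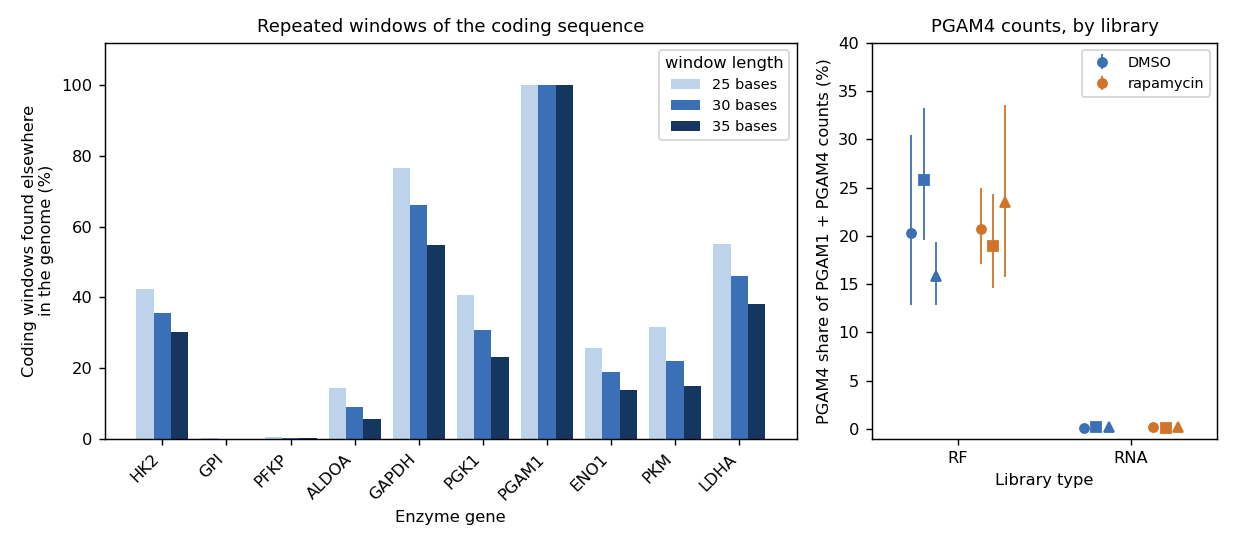
Left, percent of the coding windows of each enzyme found elsewhere in the genome, for windows of 25, 30 and 35 bases. Right, PGAM4 counts as a percent of PGAM1 plus PGAM4 counts in each library with Wilson 95% intervals, between 15.8% and 25.8% in the RF libraries and at most 0.224% in the RNA libraries.

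At the isoform level no enzyme isoform passed the test. Of 38790 isoforms tested by limma on log2(FPKM + 1), 3 were called, 0.00773%, none of them from these genes. At an unadjusted p under 0.05 by limma, 4.74% of all isoforms were found. Of the isoforms of these genes 5 were found, 3 of GAPDH and 1 each of PGAM1 and PGK1. How many isoforms of these genes were tested was not counted, so no excess over that share is read. The 4 GAPDH isoforms with at least 5% of its FPKM overlapped between the arms. Lower in every rapamycin culture were 3 GAPDH isoforms annotated with a retained intron, each at 0.15% to 0.16% of its FPKM. ENO1 RNA lay at 97.1% on a single isoform, PGAM1 at 93.8% and PKM at 89.2%, while ALDOA was spread over 8 isoforms with at least 5% each and GAPDH and LDHA over 4 each. For PGK1, 89.2% of the FPKM was assigned to a 702-base isoform with no annotated coding sequence and 9.65% to the full-length coding isoform of 4812 bases. The basis of that assignment was not tested.

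Of 22 other isozymes 17 were tested, of 14 genes of transport and control 11, and of 23 genes of neighbouring branches 20, and 0 of them had an adjusted p under 0.05 in TE, RF or total RNA, against 0% of all genes tested (edgeR quasi-likelihood, Benjamini-Hochberg). At an unadjusted p under 0.05 in TE, beside 12.6% of all genes, the isozymes had 1 lower gene, LDHC, the branches had 1 lower and 2 higher, and transport and control had 0. The median TE change was -0.17 for the isozymes, -0.12 for transport and control and -0.0082 for the branches.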

How the data were processed

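RF and total RNA of 6 PANC-1 cultures were measured, 12 libraries grouped by the treatment and number in their titles. The authors deposited raw counts: reads were aligned to GRCh37 with HISAT2, and uniquely aligned reads on protein-coding exons were counted with featureCounts, RF reads after linker trimming and removal of ribosomal RNA. In the same table the authors deposited RiboDiff's TE ratio, log2 fold change, p-values and a further score column, which were not used. Gene and isoform FPKM were deposited as made by Cufflinks 2.2.1, and the normalized counts beside them were not used here. The sizes of the libraries limit precision as given in the report, and Wilson intervals and floors cover counting error only.

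The counts were tested with edgeR 4.0.16 (quasi-likelihood, robust) in R 4.3.3, with TMM scaling within library type, on genes with at least 10 counts summed over RF and 10 over RNA libraries. For TE, the term tested was library type by treatment. RiboDiff was not run here. Isoforms were tested with limma 3.58.1 on log2(FPKM + 1) at a mean of at least 1 FPKM. P-values were adjusted by Benjamini-Hochberg across every feature of a comparison. The scripts were tested on simulated data with changes planted in 200 genes and the same scatter for all genes of a library type. Of 2-fold changes, edgeR called 0 in TE, 0 in RF and 186 in total RNA. Of 4-fold changes it called 26, 2 and 186. Unchanged genes called were 3, 0 and 13 at 2-fold and 15, 0 and 8 at 4-fold. In TE and RF most planted changes were thus missed. Python 3.11.15 with scipy 1.17.1 gave exact permutation tests and Wilson 95% intervals. Positions and isoforms came from GENCODE v44 lifted to GRCh37, a later annotation than the authors', and genes were matched by Ensembl identifier. The enzymes, the wider lists and most alternatives were chosen with earlier results of these data known. Named genes are the 10 enzymes and the other isozyme of each step with the highest FPKM. Listed genes at an unadjusted p under 0.05 in TE were also named, and isoforms with at least 5% of a gene's FPKM. ADPGK, PFKL, PGAM4, ENO3 and the genes used as tissue markers were named after their values were seen. Alternatives were DESeq2 1.42.0, its size factors, other filters, TMM over all libraries, limma voom, blocks and leaving out cultures.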

Additional observations from a re-analysis of the deposited data

How the results depend on the processing

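No enzyme and no enzyme isoform was called under any alternative run, with 10 enzymes in TE, RF and total RNA. Of the fold changes of the 10 under alternatives, 144 of 149 in TE, 109 of 119 in RF and 132 of 139 in total RNA kept their direction. An unadjusted p under 0.05 was reached in TE by ALDOA in DESeq2's Wald test (0.015), by PGAM1 without DMSO culture 3 (0.029, edgeR) and by LDHA without rapamycin culture 1 (0.016, edgeR). Apart from leaving out single cultures, the turned ones were the TE of PKM under TMM over all libraries (-0.017), the TE and RF of PFKP without both smallest RF libraries and their RNA libraries, a setting chosen after seeing the data (0.082 and 0.058), the RF of PKM under DESeq2's size factors, its Wald test and the replicate block (-0.0026, -0.0027 and -0.00026), and the total RNA of GAPDH and LDHA at a minimum of 100 counts (0.0096 and 0.012). Leaving out single cultures turned HK2 (TE -1.36 to 0.14, RF -1.23 to 0.34), PFKP (TE -0.33 to 0.23, RF -0.38 to 0.14), PKM (RF -0.045 to 0.024), GAPDH (RNA -0.041 to 0.029) and LDHA (RNA -0.013 to 0.0080). The causes were not tested. Outside the 10, TPI1 turned in TE with no minimum count (0.014), at a minimum of 100 counts (0.0022), under the culture block (0.0031), and without single cultures (TE -0.12 to 0.11, RF -0.18 to 0.065). Without single cultures the range also crossed 0 for PFKM (TE -0.55 to 0.28, RF -0.44 to 0.27), ALDOC (TE -0.13 to 2.82), PGK2 (RF -0.84 to 0.51), LDHB (TE -0.055 to 0.39, RF -0.14 to 0.29), BPGM (RNA -0.024 to 0.026) and PC (RNA -0.016 to 0.055). PC turned in total RNA with no minimum count (-0.0069) and in limma-trend on FPKM with a pseudocount of 1, 0.1 and 1 without a minimum (-0.0034, -0.0057 and -0.0034).

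Counts over all genes moved more. DESeq2's Wald test called 607 genes lower and 685 higher in TE, 1 and 4 in RF, and 4 and 25 in total RNA, where edgeR called 0. With no minimum count RF had 10 lower and 10 higher. Limma-trend on gene FPKM called 2 lower and 1 higher in total RNA, 3 and 1 with a pseudocount of 0.1, and 3 and 2 without a minimum. Leaving out cultures gave 0 to 331 lower and 0 to 65 higher in TE, 0 to 1 and 0 to 5 in RF, and 0 to 4 and 0 to 683 in total RNA, the highest in TE and total RNA without DMSO culture 3. The RNA libraries of DMSO cultures 1 and 2 had counts on 16840 and 16858 genes. All other RNA libraries, including DMSO culture 3, had counts on 19751 to 19847. The part of this split in those calls and in genes with few RNA counts was not tested. For isoforms, 2 lower and 1 higher became 68 and 260 with no minimum FPKM, 0 higher with a pseudocount of 0.1, and 0 to 5 lower and 0 to 3 higher without single cultures.

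The labels number the cultures 1 to 3 in both arms. The correlation of same-numbered deviations was -0.37, -0.25 and -0.18 in RF and -0.0026, 0.074 and 0.17 in total RNA, so the numbers were not taken as pairs. With the replicate block, 0 genes were called in TE and total RNA, 2 lower and 4 higher in RF, and 0 isoforms lower and 0 higher, and 0 of the 10 enzymes. Unadjusted, 488 genes were lower and 403 higher in TE with the block, against 856 and 823 without it.

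The median TE percentile of 53.9 was 59.5 with a prior count of 0.5, 57.0 from summed counts and 52.0 to 53.7 without single cultures. Without the 20 leading genes of each library, the enzymes' share was 1.36% in DMSO RF, 1.35% in rapamycin RF, 1.39% in DMSO RNA and 1.37% in rapamycin RNA. Repeated windows were 32.2% at 25 bases and 22.2% at 35. The PKM1 difference was -0.15 points from the leading isoforms alone and -0.32 to -0.10 without single cultures. The smallest RF library is 5.65-fold below the largest.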

Other observations

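Among the neighbouring branches, 3 genes had an unadjusted p under 0.05 in TE, beside 12.6% of all genes tested, and none passed the adjustment in the quasi-likelihood test of edgeR, Benjamini-Hochberg adjusted. PGD, which makes ribulose-5-phosphate and NADPH in the oxidative pentose phosphate pathway, had RF levels of 160.0, 157 and 158 CPM in DMSO and 100.3, 105 and 120 CPM in rapamycin. Every rapamycin culture was below every DMSO culture, on 36 to 232 RF counts per library, an RF order that 4.21% of all genes tested had. The TE change was -0.53 with a standard error of 0.22 and an adjusted p of 0.34 by the quasi-likelihood test of edgeR, Benjamini-Hochberg adjusted. DESeq2's Wald test, which called 9.69% of all genes in TE, gave -0.56 with an adjusted p of 0.0012.

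RPIA, which interconverts ribulose- and ribose-5-phosphate, drew 0, 0 and 9 footprints from the DMSO cultures and 21, 16 and 4 from the rapamycin cultures, with 1191 to 1495 RNA counts per library. Its TE change was 2.41 with a standard error of 0.64 and an adjusted p of 0.23 (edgeR, Benjamini-Hochberg). DESeq2's Wald test gave an adjusted p of 7.3e-04, where it called 9.69% of all genes in TE. Without DMSO culture 2 the change was 1.90. Without DMSO culture 3 the DMSO cultures left had 0 RF counts and the fit gave 12.7 at an adjusted p of 0.029 by edgeR, Benjamini-Hochberg adjusted, a size that depends on the prior count and is no bound, so the size of the change rested on the 9 counts of that culture. PC, pyruvate carboxylase, which makes oxaloacetate from pyruvate, drew 4, 4 and 13 footprints from DMSO and 15, 16 and 7 from rapamycin, and its TE change was 1.01 with a standard error of 0.46 and an adjusted p of 0.38 (edgeR, Benjamini-Hochberg). For both genes most RF levels in DMSO lay at or near the floor of 3 counts per library.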
